A study of Homo sapiens with 4 samples.

Results

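RNA co-precipitated with variant 1 of SRP9 was compared with the whole-cell RNA of the same cells, in the pancreatic cancer cell line MiaPaCa. The comparison was chosen by its labels and rests on 2 of the 4 libraries of the series, 1 from the RNA immunoprecipitation (RIP) and 1 from the input. Cells of both libraries carried a pIRES2 vector that expressed variant 1 with a nuclear localisation signal and a 3xFLAG tag, with acGFP1 as a reporter translated from the same transcript. They were transfected by electroporation, kept in Geneticin, sorted for the reporter and grown without selection before lysis, and no clone is named in the labels. The other pair of libraries came from cells treated alike that carried variant 2, and serves here only as a second experiment beside the first. All 4 groups thus shared the vector, tag, localisation signal and selection, with 1 library each. No precipitate from cells without a tagged SRP9 was analysed here, so RNA held back by beads or antibody alone has no measured background. How the variants differ, and which promoter drives the vector, is not stated in the labels.

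SRP9 is a subunit of the signal recognition particle, the ribonucleoprotein that brings ribosomes making secreted and membrane proteins to the endoplasmic reticulum. With its partner SRP14 it holds the Alu fold at the end of 7SL, the RNA of the particle, and slows translation while the ribosome is delivered. The same protein pair can bind other RNAs of that fold, among them transcripts of Alu repeats, and it passes through the nucleus, where the particle is assembled in part. The question behind the series, from its design text, is what the variants do when they are held in the nucleus.

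The deposited values are listed per Ensembl gene ID, and the reference table used here pairs 0 of its 59792 genes with such an ID. No ID could therefore be given a gene name, class or position, and the levels of 7SL, of SRP9 and of the markers of the cell line were not read. The results describe how the RNA of variant 1 was distributed over IDs, how RIP and input levels were related, and which of these features were also present with variant 2. With 1 library a side no test was possible, and intervals cover counting error only.

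The RIP library of variant 1 held 3921361 counts and its input 50454080, a ratio of 12.9. The variant 2 libraries held 5211354 and 58815384 counts. Levels are given as CPM, the counts scaled to a common library total, so that 1 count equals 0.255 CPM in the RIP of variant 1 and 0.0198 CPM in its input. A count of 0 allows up to 0.765 CPM in the former and 0.0595 CPM in the latter (3 counts, for counting error only).

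The RNA precipitated with variant 1 was spread over many more IDs than the whole-cell RNA. The first 50% of the RIP counts were reached with the 5014 most abundant IDs, and the first 90% with 21206. In the input, 822 and 6033 IDs were enough. The median ID had 4.85 CPM in the RIP and 0 in the input, while the 99th percentile was lower in the RIP, at 124 against 271 CPM. The RIP library thus had more IDs at middle levels and fewer at high levels. With variant 2, 5526 IDs of the RIP and 851 of the input made up the first 50%.

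**Figure D1:**
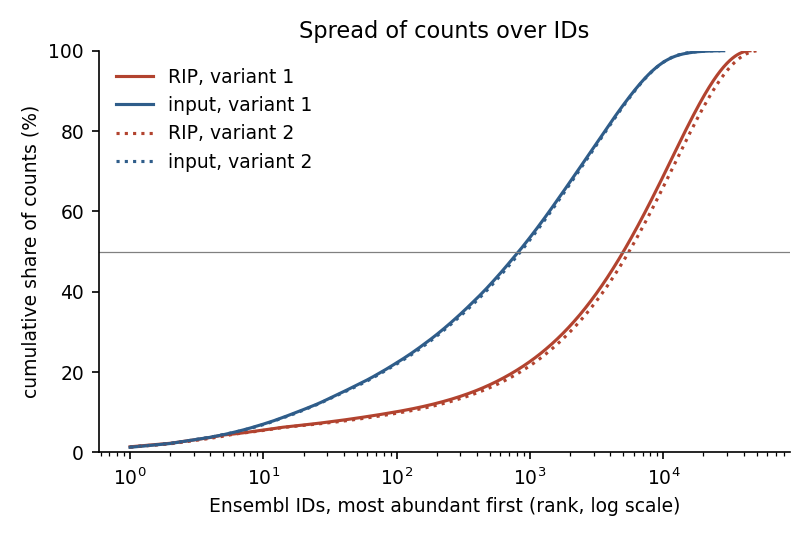
Cumulative share of counts (vertical axis, percent) over Ensembl IDs ranked by abundance within each library (horizontal axis, log scale), with 1 line per library. The RIP of variant 1 reached 50% (grey line) at 5014 IDs and its input at 822; the dotted lines of variant 2 follow the same course.

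A few IDs stood far above the rest in the RIP. The most abundant had 13976 CPM, close to the 12775 CPM of the most abundant ID in the input. Only 16 IDs were over 1000 CPM in the RIP of variant 1, against 90 in its input. These 16 held 6.49% of the RIP counts and 4.82% of the input counts, and 14 of them were over 1000 CPM in the input too. On the scale of log2 ratios (RIP over input, with 0.5 CPM added to both), 6 of the 16 were at least 2-fold higher in the RIP and 2 at least 2-fold lower, with a range of -2.73 to 6.76 and a median of 0.65. The most abundant RNAs of the precipitate were therefore mostly abundant in whole cells as well. In the RIP of variant 2, 13 of the 16 were over 1000 CPM, and their median log2 ratio there was 0.42.

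Agreement between the ranks of both libraries was limited below that. Of the 100 most abundant IDs in the RIP, 50 were among the 100 of the input, and 72 were among the 100 of the RIP of variant 2. For the first 1000 IDs the numbers were 366 and 647. Of the 1000 most abundant IDs of the input, 887 were at least 2-fold lower in the RIP of variant 1 and 5 at least 2-fold higher. Their median log2 ratio was -2.12. That median is conditional on a high input level, and the ratios by input level below show the same.

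RIP and input of variant 1 were then compared ID by ID. An ID entered with at least 5 CPM in either library, which 31104 of 60676 did. At least 2-fold higher in the RIP were 21438 of these (68.9%), and 4322 (13.9%) were at least 2-fold lower. At least 4-fold apart were 19351 higher (62.2%) and 2048 lower (6.58%), and at least 8-fold apart 17255 and 786. The median log2 ratio was 3.54. These counts depend on which IDs entered. Of the 31104, 19238 entered through the RIP level alone and are higher there by that choice, while 1125 entered through the input alone and are lower by it. IDs with 0 counts in the input made up 10062 of the higher ones, and an ID at 0 that enters has to be higher. The 10741 IDs with at least 5 CPM in both libraries had a median log2 ratio of -0.20, with 2365 (22.0%) higher and 3338 (31.1%) lower.

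The split also depends on scaling. The log2 ratios were lower by 1.34 with TMM factors and by 1.47 with DESeq2 size factors than on library totals, before the added 0.5 CPM. Of all IDs at least 2-fold apart, 83.2% were higher on library totals, 64.6% with TMM and 62.8% with DESeq2 size factors. The direction of moderate ratios is therefore relative to the scaling, which moves all ratios by 1 factor and, apart from the added 0.5 CPM, leaves the order of IDs as it is.

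**Figure D2:**
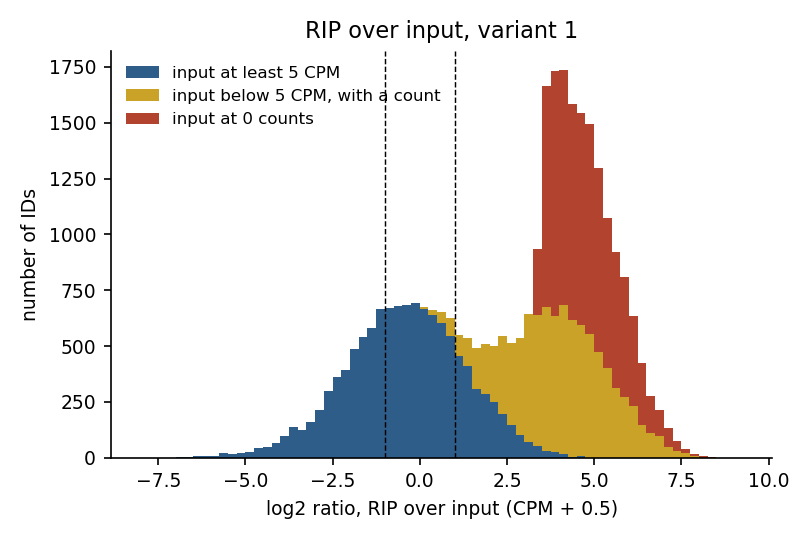
Number of IDs (vertical axis) by log2 ratio of RIP over input of variant 1 (horizontal axis, CPM plus 0.5), stacked by input level, for the 31104 IDs with at least 5 CPM in either library. IDs with at least 5 CPM in the input lie around 0 with a median of -0.40. The 10062 IDs at 0 counts in the input lie on the right, where their entry criterion puts them. Their median was 4.64 for whole counts and 4.82 for counts that hold a fraction of a read. IDs over 0 and under 5 CPM in the input lie on the right too, with medians of 4.11 and 3.75. Dashed lines mark 2-fold.

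RIP levels of variant 1 increased with input levels but much less than in proportion. IDs over 5 and up to 10 CPM in the input had a median of 14.3 CPM in the RIP, with the 10th percentile at 1.19 and the 90th at 54.8 CPM. IDs over 20 and up to 50 CPM had a median of 28.3 CPM, and here RIP and input were close, at a median input of 31.5 CPM. IDs over 100 and up to 200 CPM in the input had 50.8 CPM in the RIP, and those over 500 and up to 1000 CPM had 119 CPM. From the first to the last of these bins the median input grew from 7.12 to 634 CPM. Across the 11866 IDs with at least 5 CPM in the input, the slope of the log2 RIP level on the log2 input level was 0.48, with correlations of 0.48 (Pearson) and 0.47 (Spearman). These describe IDs, which are not independent replicates. The inputs of both variants, set against each other over the same IDs, had a slope of 0.99 and a Pearson correlation of 0.97. The RIP and input of variant 2 had a slope of 0.45 over 11894 IDs, so the shallow relation was present in both experiments.

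**Figure D3:**
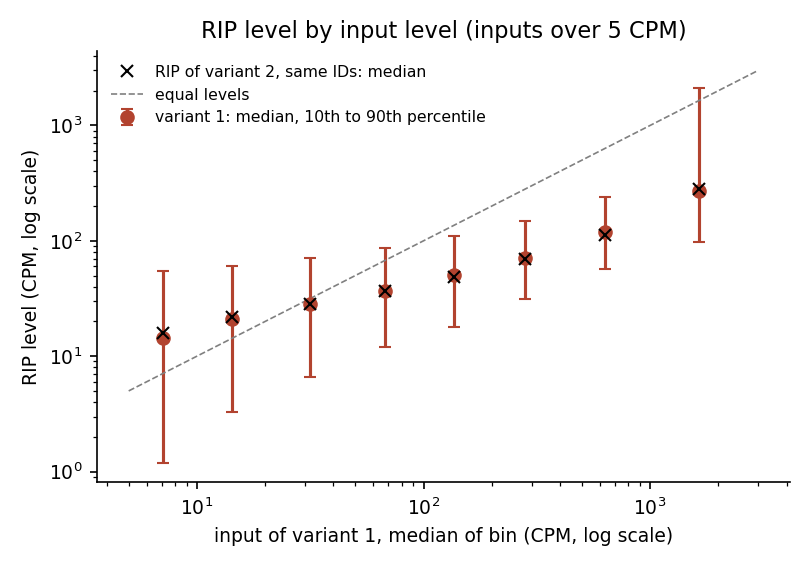
RIP level of variant 1 (vertical axis, CPM, log scale) for IDs grouped by their level in its input (horizontal axis, median of each bin, CPM, log scale). Points are medians and bars run from the 10th to the 90th percentile over IDs; crosses are the medians of the same IDs in the RIP of variant 2, which lie on or near the points. The medians are above the dashed line of equal levels at 7.12 CPM of input (14.3 CPM in the RIP) and below it at 31.5 CPM (28.3 CPM in the RIP) and in the bins above.

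The ends of the input range differed most. The 2099 IDs over 100 CPM in the input held 68.4% of its counts and 23.4% of the RIP counts of variant 1 (95% exact Clopper-Pearson interval 23.35% to 23.44%). The 43775 IDs at or below 1 CPM in the input held 0.354% of its counts and 33.8% of the RIP counts (33.8% to 33.9%). Among the 90 IDs over 1000 CPM in the input, 77 were at least 2-fold lower in the RIP and 4 at least 2-fold higher. Their RIP levels had a 10th percentile of 97.9 and a 90th of 2095 CPM. That spread was wider than among the 161 IDs over 500 and up to 1000 CPM, where the same percentiles were 57.4 and 240 CPM. The input range of the 90 IDs was wider as well, up to 12775 CPM, and its share in the spread was not tested. On library totals, a few very abundant IDs thus had a RIP level above their input level, while most had a lower one.

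At a given input level, RIP levels of variant 1 varied far beyond counting error. For IDs over 20 and up to 50 CPM in the input, the 90th percentile of the RIP level was 10.8 times the 10th. The median ID there had 111 RIP counts, for which the 95% exact Poisson interval is 23.3 to 34.1 CPM, while the 10th and 90th percentiles were 6.63 and 71.6 CPM. For IDs over 200 and up to 500 CPM the ratio of the percentiles was 4.76, and for those over 5 and up to 10 CPM it was 46.0.

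This variation was measured as the deviation of an ID from others of like input level. The 16901 IDs with at least 1 CPM in the input were divided into 50 equal bins by input level, and the deviation is the log2 RIP level (with 0.5 CPM added) minus the median of the bin. Scaling enters it only through the added 0.5 CPM and the minimum of 1 CPM. By this measure 3783 IDs (22.4%) were at least 2-fold above their bin in the RIP of variant 1 and 4452 (26.3%) at least 2-fold below. At least 4-fold away were 1052 above (6.22%) and 2357 below (13.9%). By the way the bins are made, the median deviation is 0, so only the width is a measurement. Over the 15228 IDs that also reached 1 CPM in the input of variant 2, the low side was wider. The 10th percentile was -2.42 and the 90th 1.56. The gap was largest at low input, with -4.00 and 2.12 at 1 to 5 CPM against -1.33 and 1.14 over 100 CPM. Of all IDs over 1 and up to 5 CPM in the input, 10.1% had 0 RIP counts, and the added 0.5 CPM sets their value.

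The deviations of variant 1 were largely present with variant 2, whose RIP and input share no library with it. Over the 15228 IDs the deviations had a Pearson and a Spearman correlation of 0.73. Within IDs of 1 to 5, 5 to 20, 20 to 100 and over 100 CPM in the input of variant 1, the Pearson correlation was 0.75, 0.72, 0.69 and 0.73. The points share the cell line, the protocol and every property of an ID, such as the length of its gene, which was not measured here. Of 3213 IDs at least 2-fold above their bin with variant 1, 1951 were so with variant 2, which is 60.7% of the former and 68.8% of the 2837 in the latter. Over all 15228 IDs, 18.6% were that far above with variant 2. Of 3903 at least 2-fold below with variant 1, 2172 were so with variant 2, which is 55.6% and 65.6% of the lists, against 21.8% over all IDs.

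IDs with the largest deviations kept their side most often. Of 795 IDs at least 4-fold above their bin with variant 1, 790 were above the median of their bin with variant 2, and 0 were at least 4-fold below it. Of 1972 at least 4-fold below with variant 1, 1824 were below with variant 2. Their size was smaller there, with a median of -1.73 against -3.21 with variant 1. For the IDs above, the medians were 2.14 and 2.47. The IDs were chosen for extreme values with variant 1, which by itself makes values in other libraries less extreme, and a difference between the variants was not tested.

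**Figure D4:**
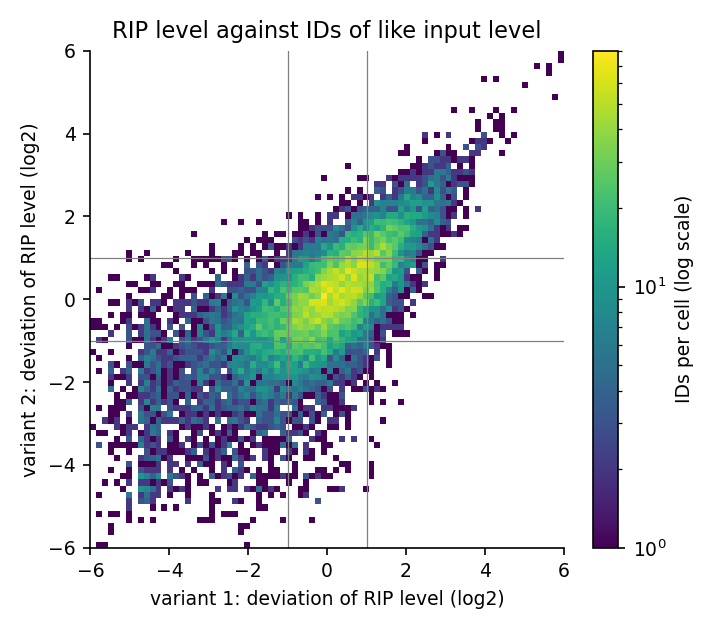
Deviation of the RIP level from IDs of like input level (log2) for variant 1 (horizontal axis) and variant 2 (vertical axis), with colour giving the number of IDs per cell on a log scale, for 15228 IDs of which 10 lie outside the axes. The cloud runs along the diagonal (Pearson correlation 0.73), and the IDs far above the median in both are closer to it than those far below, among which IDs at 0 counts form the band at the left. Grey lines mark 2-fold.

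A large part of the RIP counts of variant 1 fell on IDs for which its input had no count. Of all IDs, 32304 (53.2%) had 0 counts in the input, and 12842 of these had 0 in the RIP as well. The others held 18.9% of the RIP counts (95% exact interval 18.87% to 18.94%). At least 10 RIP counts were present for 13684 of them, at least 50 for 4821 and at least 100 for 1802. Most had low levels, with a median of 8.67 CPM among those with at least 10 counts, and the highest reached 214 CPM. In the RIP of variant 2, 94.4% of the 13684 had a count, and their median was 7.29 CPM. Of all IDs, those at 0 in the RIP of variant 1 included, 85.0% had a count there. All 1802 with at least 100 counts had one. At least 100 counts were reached there by 64.3% of the 1802. Levels were within 2-fold of those in variant 1 for 52.2% of the 13684 and for 66.6% of the 1802. Whether other IDs with as many RIP counts were closer or further apart was not tested. In the input of variant 2, a count was present for 2192 of the 13684 and for 460 of the 1802 (25.5%), against 44.0% of all IDs, and the highest level there was 7.79 CPM. A 0 in the first input thus went with a 0 in the second for most of these IDs. It did so less often at high RIP levels, where 11 of the 21 IDs with at least 400 RIP counts had a count in the second. The likeness of the inputs was measured over IDs with at least 5 CPM in the first, which leaves these IDs out.

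The opposite case was rarer. The input of variant 1 had at least 50 counts for 16976 IDs, of which 715 (4.21%, 95% exact interval 3.91% to 4.52%) had 0 counts in its RIP, and among 9832 with at least 500 counts 89 did (0.905%, 0.728% to 1.11%). An equal level in the RIP would give 3.89 counts at 50 input counts and 38.9 at 500, against the 3 counts that a 0 allows. The 715 had a median input of 2.44 CPM, so for many of them a 0 hardly differs from an equal level. In the RIP of variant 2, 6 of these 89 were at 0 (6.74%, 2.51% to 14.1%), against 0.173% of all 9832. The 89 had a median of 3.84 CPM there, against 33.6 CPM over the 9832. Most of the 89 IDs without a count in the RIP of variant 1 were thus detected with variant 2, at low levels. At 0 in the RIP of variant 1 were 10.1% of the IDs over 1 and up to 5 CPM in the input, 2.42% of those over 10 and up to 20 CPM, and 0 of the 2099 over 100 CPM. In the RIP of variant 2, which had 1.33 times the counts, 4.25% and 0.433% of the same IDs were at 0.

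A pair of IDs in each direction shows the range. With 0.5 CPM added to both levels, ENSG00000157423 had the highest ratio among IDs with counts on both sides. Its level was 323 CPM in the RIP of variant 1 (95% exact Poisson interval 306 to 341, from 1267 counts) and 0.634 CPM in the input (0.434 to 0.895, from 32 counts), a plain ratio of 509 (359 to 748) on library totals, 201 with TMM factors and 184 with DESeq2 size factors. With variant 2 it had 338 and 0.748 CPM, so RIP levels and ratio were alike in both experiments. ENSG00000229140 had the highest RIP level among IDs at 0 in the input, with 214 CPM from 838 counts. With 3 counts set for the 0, it was at least 3594-fold higher in the RIP on library totals and at least 1298-fold with DESeq2 size factors. If both reads of a pair were counted, a 0 allows 6 reads and the bounds are 1797-fold and 649-fold. With variant 2 it had 171 CPM in the RIP and 1.09 CPM, from 64 counts, in the input, a ratio of 158 (122 to 206). The RIP levels of this ID were close, while 1 input had 64 counts and the other 0.

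Among the lower IDs, ENSG00000128245 had the lowest ratio with counts on both sides, again with 0.5 CPM added. Its level was 151 CPM in the input of variant 1 (148 to 155) and 0.51 CPM in the RIP (0.062 to 1.84), from only 2 counts. With variant 2 its input was similar, at 161 CPM, but the RIP had 30.2 CPM (25.7 to 35.3). ENSG00000130511 had the highest input level among IDs at 0 in the RIP, with 61.0 CPM from 3078.5 counts, so it was at least 79.8-fold lower in the RIP, or at least 39.9-fold if a 0 allows 6 reads, on library totals. With DESeq2 size factors these bounds were 221-fold and 110.4-fold. With variant 2 it had 50.3 CPM in the input and 10.5 CPM in the RIP (7.87 to 13.6). Both were lower in RIP than in input in both experiments, and for both the RIP level was much lower with variant 1. Because they were chosen as the lowest with variant 1, that gap is a description.

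**Figure D5:**
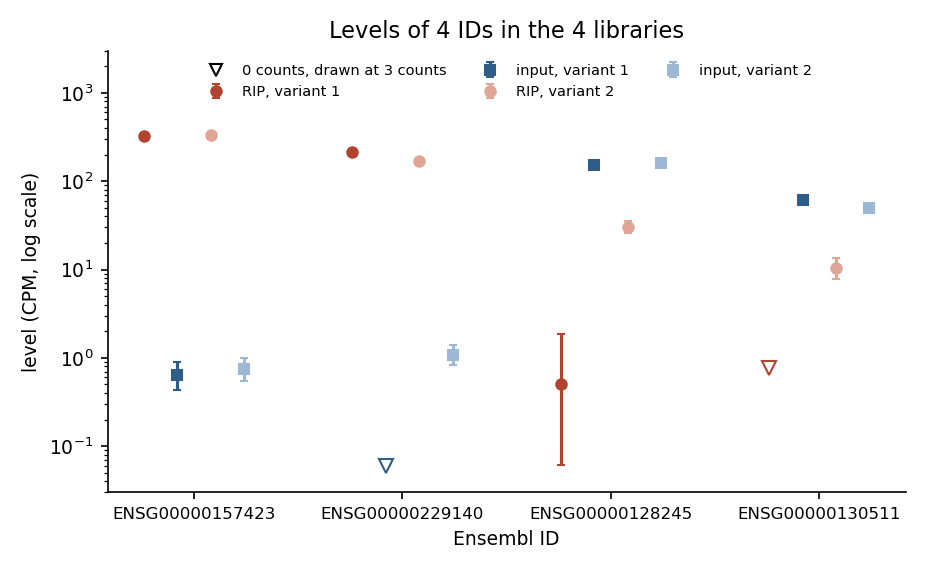
Level (vertical axis, CPM, log scale) of 4 IDs in the 4 libraries, with 95% exact Poisson intervals; open triangles mark 0 counts, drawn at the level of 3 counts. The first pair of IDs is high in both RIP libraries (171 to 338 CPM) and at most 1.09 CPM in the inputs; the second pair is at 50.3 to 161 CPM in the inputs, and its RIP levels are lower with variant 1 (0.51 CPM and 0 counts) than with variant 2 (30.2 and 10.5 CPM).

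The calls of variant 1 were last set beside the second experiment by their size. Of the 21438 IDs at least 2-fold higher in the RIP of variant 1, 16279 met the same criteria with variant 2 (75.9%), which is 71.7% of the 22692 higher there. The share was 58.8% for IDs 2- to 4-fold higher with variant 1, 79.3% for 4- to 8-fold and 64.4% for 8- to 16-fold. It was 74.2% for 16- to 32-fold and 92.4% for those at least 32-fold higher. In these shares an ID that did not enter with variant 2 counts as not shared. Among IDs that entered, 1228 of 1927, 1662 of 1804, 3199 of 3222, 4713 of 4715 and 5477 of 5478 were shared, in the same order. The lower share at 8- to 16-fold was thus a matter of entry, with 3222 of 4970 IDs entering. Most higher IDs of variant 1 entered through the RIP level alone. One that enters so with variant 2 too is higher there by that choice. The shares among IDs that entered, and their rise with size, are therefore in part set by entry. Of the 4322 lower IDs, 3036 were lower with variant 2 as well (70.2%, and 74.4% of the 4079 there). The share was 61.3% for IDs 2- to 4-fold lower and between 79.7% and 80.4% in the larger classes. With variant 2, 69.9% of the 32443 IDs that entered were higher and 12.6% lower, and 62.9% and 4.93% were so at least 4-fold. On the 26678 IDs that entered in both experiments, 94.9% of the higher IDs of variant 1 were higher with variant 2, against 64.1% of all, and 71.2% of its lower IDs were lower, against 15.1% of all. An ID that enters both times through the RIP level is higher both times by that choice. On the 11306 IDs with at least 5 CPM in both inputs, 2081 were higher with variant 1 (18.4%) and 1383 of these with variant 2 (66.5%), against 17.5% of all 11306. On the same IDs 4229 were lower with variant 1 and 3036 of these with variant 2 (71.8%), against 35.4% of all. The inputs were nearly alike, so both ratios have similar denominators.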

How the data were processed

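Per the submitters' processing notes, HISAT2 2.1.0, featureCounts, Subread 2.0.0 and the build GRCh38.p13 were used. The labels name no annotation release, strand setting or handling of reads with several positions. As deposited, the values are estimated counts per Ensembl ID, not normalized per the file headers. A fraction of a read is present in 13.9% of the values of the RIP of variant 1, as when a read is divided between IDs, so near-identical or overlapping genes can have exchanged reads. Whether read pairs were counted once is not given either. The protocol text used here ends at cell lysis, so antibody, cross-linking, selection of RNA and library kit are not known, and RIP and input could differ in them.

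Counts were divided by library totals (CPM). Ratios are log2((RIP + 0.5)/(input + 0.5)) for IDs with at least 5 CPM in either library, without rounding, and 2-fold was the threshold (Python 3.11.15, pandas 2.3.3, SciPy 1.17.1). TMM factors came from edgeR 4.0.16 and size factors from DESeq2 1.42.0 on rounded counts (R 4.3.3). With 1 library a group no test was run. Folds against 0 counts used 3 counts. Amplified reads are not independent molecules, so Poisson and binomial intervals cover counting error only. The ratio script was checked on simulated counts, with 4-fold changes set in IDs of at least 50 expected RIP counts. Both simulated libraries otherwise shared a common profile. The check therefore does not cover changes in IDs at or near 0 in the input. The rule for named genes asked for a symbol. Without symbols, the IDs with at least 50 counts in either library and values unlike those of any other ID were ranked by the same criteria, with 2 named per direction. For the same reason 28 gene lists and the markers of the cell line were not used. Comparison, lists and rule were chosen with earlier results of these data known, and the deviation from IDs of like input level was chosen after seeing the data.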

Additional observations from a re-analysis of the deposited data

Results flagged for a closer look

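A small number of IDs differed in direction between the experiments. RIP exceeded input at least 2-fold with variant 1, and input exceeded RIP at least 2-fold with variant 2, for 30 IDs. The reverse held for 79 IDs. These were 0.14% of the 21438 IDs higher with variant 1 and 1.83% of the 4322 lower ones. Of all 26678 IDs that entered in both experiments, 15.1% were lower and 64.1% higher with variant 2. The difference in direction was not tested, as each ratio rests on 1 library a side. Both sets were chosen for opposite ratios, so RIP levels that differ in these directions follow largely from that choice. The median RIP level of the 30 was 26.9 CPM with variant 1 (median 105.5 counts) and 3.50 CPM with variant 2 (18.25 counts). Their median input level was 9.35 CPM and 11.7 CPM. For the 79 the median RIP level was 2.17 CPM with variant 1 (8.5 counts) and 21.9 CPM with variant 2 (114 counts). Their median input level was 8.80 CPM and 6.14 CPM. A RIP library was at 0 counts for 1 of the 30 and for 13 of the 79, and the inputs themselves were at least 2-fold apart for 11 and 19.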

How the results depend on the processing

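On library totals 21438 of 31104 IDs (68.9%) were at least 2-fold higher in the RIP of variant 1 and 4322 (13.9%) at least 2-fold lower. The lower count was 8243 with TMM factors (30.1% of 27347) and 8629 with DESeq2 size factors (31.8% of 27100), which lower every ratio. It was 2285 for whole-valued IDs (10.6% of 21496) and 2048 at a threshold of 4-fold (6.58% of 31104). The higher count was 32159 with no minimum level (67.2% of 47834) and 8931 with a minimum of 20 CPM (54.9% of 16282). With a minimum of 5 CPM in the input it was 2365 of 11866 (19.9%), and 36.4% were lower. There lower IDs outnumbered higher ones, and the median log2 ratio was -0.40 against 3.54 in the main setting. These settings test more or fewer IDs, and the last one also turns the balance of directions. Both counts stayed within 1.5 times under other pseudocounts, with 1 ID of each identical group, and with the input thinned to the RIP total. The deviations from IDs of like input level gave 3783 IDs above and 4452 below. They gave 2245 and 2724 with a minimum of 5 CPM in the input, 1916 and 2425 for whole-valued IDs and 1052 and 2357 at 4-fold, and stayed within 1.5 times with other bins, pseudocounts and scaling (4343 and 5041 with TMM, 4403 and 5051 with DESeq2 size factors). The 4 named IDs kept their direction in every setting in which they had a value. ENSG00000128245 and ENSG00000130511 had none among whole-valued IDs, and ENSG00000157423 and ENSG00000229140 none with a minimum of 5 CPM in the input. The log2 ratios ranged from 6.95 to 8.78 for ENSG00000157423 and from 6.75 to 11.06 for ENSG00000229140. They ranged from -8.29 to -5.93 for ENSG00000128245 and from -9.26 to -4.98 for ENSG00000130511. Scaling without mitochondrial genes, gene list medians, gene classes and gene spans were not run, because the IDs have no names here. No paired analysis was possible because each group has 1 library. Depth limits the RIP most, where 50 counts correspond to 12.8 CPM.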

Other observations

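IDs whose counts hold a fraction of a read, and thus share reads with others, had 28.0% of the counts in the RIP of variant 1 and 47.8% in its input. Such values were 13.9% and 14.2% of all values in these libraries. The input had 12.9 times the counts, and the part of depth in this gap was not tested. Among IDs that entered the comparison, those with a fraction in either library (9608) had a median log2 ratio of 1.36 and those with whole values (21496) one of 3.88. At like input levels the medians were closer. For 20 to 100 CPM in the input they were -0.52 over 2312 IDs with a fraction and -0.50 over 3082 whole-valued IDs. Over 100 CPM they were -1.83 and -1.72, and for 5 to 20 CPM 0.54 and 0.84. With variant 2 the last pair of medians was 0.65 and 0.88.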
